A study of Mus musculus with 6 samples.

Results

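The unfolded protein response and the integrated stress response were followed in wild-type and knockout mouse macrophages through 40 genes, chosen by name for their place in the 2 pathways, with earlier results of these libraries known. All 40 were among the 27240 genes listed and among the 16239 that passed the filter on low counts. The libraries held poly(A) RNA of primary peritoneal macrophages, the phagocytes of the abdominal cavity, and every library came from cells treated with oxidised low-density lipoprotein (oxLDL), the altered lipid particle that scavenger receptors bring into macrophages. The labels give 3 libraries the genotype WT and 3 the genotype KO, and the series title names DCLK1, a doublecortin-like kinase, and IKKβ. The knockout allele, the strain and age of the mice and the dose and duration of oxLDL were not stated in the labels. Cells without oxLDL were not analysed here, and the values therefore compare genotypes under oxLDL and do not measure a response to oxLDL. The labels do not say whether replicates came from separate animals, and p-values therefore reflect the spread among these samples alone, which can be technical.

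The endoplasmic reticulum (ER) folds secreted and membrane proteins, and 3 sensors in its membrane, IRE1α, ATF6 and PERK, respond when unfolded proteins gather in it. IRE1α splices Xbp1 mRNA, ATF6 is cut to release a transcription factor, and PERK phosphorylates the translation factor eIF2α, which lowers general translation while favouring the mRNA of the transcription factor ATF4. Other kinases, among them the haem-regulated HRI and the amino acid sensor GCN2, phosphorylate the same site, and the shared outcome is called the integrated stress response. In macrophages loaded with lipid these pathways are known for their link to cell death through CHOP, the product of Ddit3.

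Total counts were between 68053008 and 79090732 per library, and a member held between 732 and 64559 counts in a library. Levels compared between libraries are counts scaled to library size (CPM) on library sizes scaled by TMM, edgeR's trimmed mean of M-values. Levels compared between genes are the deposited FPKM, fragments scaled by gene length and library size, since these allow for gene length. The transcript named in the title, Dclk1, held 494, 498 and 584 counts in the wild-type and 415, 431 and 377 in the knockout libraries in replicate order. Its CPM was 7.13 ± 0.383 (SD, n = 3) in wild type and 5.53 ± 0.370 in knockout, with an adjusted p of 0.332 by edgeR's quasi-likelihood test with Benjamini-Hochberg adjustment, so that each knockout library was lower but the difference did not pass the threshold of 0.05.

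The cells carried the macrophage markers Adgre1 (F4/80), at 1057 ± 32.0 CPM in wild type, against 1016 ± 13.4 in knockout (SD, n = 3), and Cd68, at 1994 ± 77.2 and 1993 ± 41.6 CPM. Both belong to a list of 10 macrophage markers, of which 8 had a knockout to wild-type fold change in the lower direction. Among them only Lyz2 passed by edgeR, and it was lower in knockout. Plasma cells, which carry a very active unfolded protein response, were looked for among the cells. Their Jchain lay between 0 and 0.533 CPM and their Mzb1 between 0 and 0.108 CPM in the 6 libraries. The whole list of B and plasma cell markers summed to 263 to 305 CPM in wild type and 223 to 266 in knockout, most of it Sdc1. Jchain and Mzb1 thus lay near 0 in every library, and which cells held the Sdc1 RNA was not tested. In bulk RNA, fewer cells of a type and less RNA per cell cannot be told apart.

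The promoters of the 40 genes were searched for the elements through which the branches of the response are known to act. RefSeq (GRCm38.p6) windows from 250 bases before to 50 bases after each start site were found for 36 of the 40 genes. On both strands they were searched for the ER stress response element (ERSE), CCAAT and CCACG with any 9 bases between, which ATF6 binds together with NF-Y. It was found in 8 members and in 39 of 32851 promoters in all, or 0.119%. The members were chosen as known genes of the response, so this share describes the choice. The elements are printed because they mark a set of mostly folding genes whose levels follow. Each is printed in the direction of its gene, with the fixed letters in capitals, so that a match on the other strand reads CGTGG, 9 bases and ATTGG.
Hspa5 (chr2:34772015-34772053, plus strand): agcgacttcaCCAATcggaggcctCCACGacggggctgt
Calr (chr8:84847065-84847103, minus strand): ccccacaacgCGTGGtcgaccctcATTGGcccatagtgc
Hsp90b1 (chr10:86705628-86705666, minus strand): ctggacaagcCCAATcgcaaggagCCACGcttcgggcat
Hsp90b1 (chr10:86705523-86705561, minus strand): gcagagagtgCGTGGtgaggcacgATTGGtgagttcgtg
Canx (chr11:50325790-50325828, minus strand): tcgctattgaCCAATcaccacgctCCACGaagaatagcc
Pdia6 (chr12:17266481-17266519, plus strand): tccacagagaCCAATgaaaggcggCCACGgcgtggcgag
Dnajc3 (chr14:118937817-118937855, plus strand): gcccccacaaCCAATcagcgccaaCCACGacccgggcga
Creld2 (chr15:88819510-88819548, plus strand): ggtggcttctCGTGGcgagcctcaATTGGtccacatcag
Syvn1 (chr19:6046522-6046560, plus strand): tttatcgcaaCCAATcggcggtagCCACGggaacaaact

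Hsp90b1 held 2 copies in opposite directions, and the copy in Hspa5, the best known target, ended 47 bases before the RefSeq start site. The deposited span of Hspa5 (chr2:34771970-34777547, plus strand) contains this copy. The deposited spans of Atf3 and Nupr1 likewise contain the elements printed for them below. Herpud1 and Dnajb11 held the shorter ERSE-II, ATTGG and CCACG with any 1 base between, which was in 12 promoters, or 0.0365%. The copy in Herpud1, in capitals, ended 42 bases before the start site.
Herpud1 (chr8:94386367-94386397, plus strand): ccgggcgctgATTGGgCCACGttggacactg

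The C/EBP-ATF response element bound by ATF4 was searched as TTGCATCA, which 294 promoters (0.895%) held. It was found in 4 members, among them Herpud1, which also held the ERSE-II. The other members with a window, among them Asns, Trib3 and Psat1, held no exact match. The element is in capitals and is shown for the 4 genes that held it because ATF4 is known to act through it.
Atf3 (chr1:191183426-191183453, minus strand): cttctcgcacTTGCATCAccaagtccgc
Chac1 (chr2:119351039-119351066, plus strand): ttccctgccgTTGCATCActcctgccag
Nupr1 (chr7:126625563-126625590, minus strand): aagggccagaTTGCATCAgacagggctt
Herpud1 (chr8:94386307-94386334, plus strand): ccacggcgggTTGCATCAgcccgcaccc

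The letters TGACGTGG, a core bound by XBP1 and ATF6, were in 222 promoters (0.676%) and in 0 of the 36 members' windows. A match is a description of the letters, not a measured site. The 8 genes with an ERSE had a median level of 88.8 FPKM, against 22.3 FPKM for the 28 genes whose window held none. Their median log2 fold change, knockout over wild type, was -0.04 (range -0.31 to 0.02), beside -0.03 (range -0.22 to 0.18) for the 28 others.

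Across the 40 genes the genotypes lay close together. By edgeR's quasi-likelihood test 0 of 40 passed an adjusted p of 0.05, where 0.0677% of the 16239 genes tested did. At an unadjusted p under 0.05 there were 4 (10.0%), Creld2 with a lower level in knockout and Ddit3, Edem1 and Ppp1r15b with higher ones, beside 10.4% of all genes tested. In the lower direction 5.71% of all genes met that mark and in the higher direction 4.73%. DESeq2 called 1 member, Creld2, beside 3.44% of the 12015 genes to which it gave an adjusted p. EdgeR with robust dispersion called 0 members and 0.486% of all genes tested. The median log2 fold change of the members was -0.03, against -0.0019 over all genes tested, and 24 of 40 (60.0%) lay below 0, against 50.5%. For 32 of 40 members the log2 fold change was within 0.1 of 0, which held for 41.2% of all genes tested. All 40 members had a mean of at least 10 CPM, as had 8226 of the 16239 genes tested, so this comparison was not matched for level.

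The precision of these values can be read from the 95% intervals. For 37 of the 40 genes the interval of the knockout to wild-type ratio lay inside a 1.5-fold change in either direction, and for 33 inside 1.25-fold. Atf4, Nupr1 and Ppp1r15a had intervals that reached beyond 1.5-fold. In 8 members (20.0%) the 3 wild-type and 3 knockout libraries did not overlap, as in 17.6% of all genes tested. Creld2, Hsp90b1 and Herpud1 were lower in every knockout library (8.89% of all genes were) and Ddit3, Dnajb9, Edem1, Ppp1r15b and Asns were higher (8.68%). With 3 libraries against 3, an exact two-sided permutation test of 1 gene can give no p below 0.1.

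**Figure D1:**
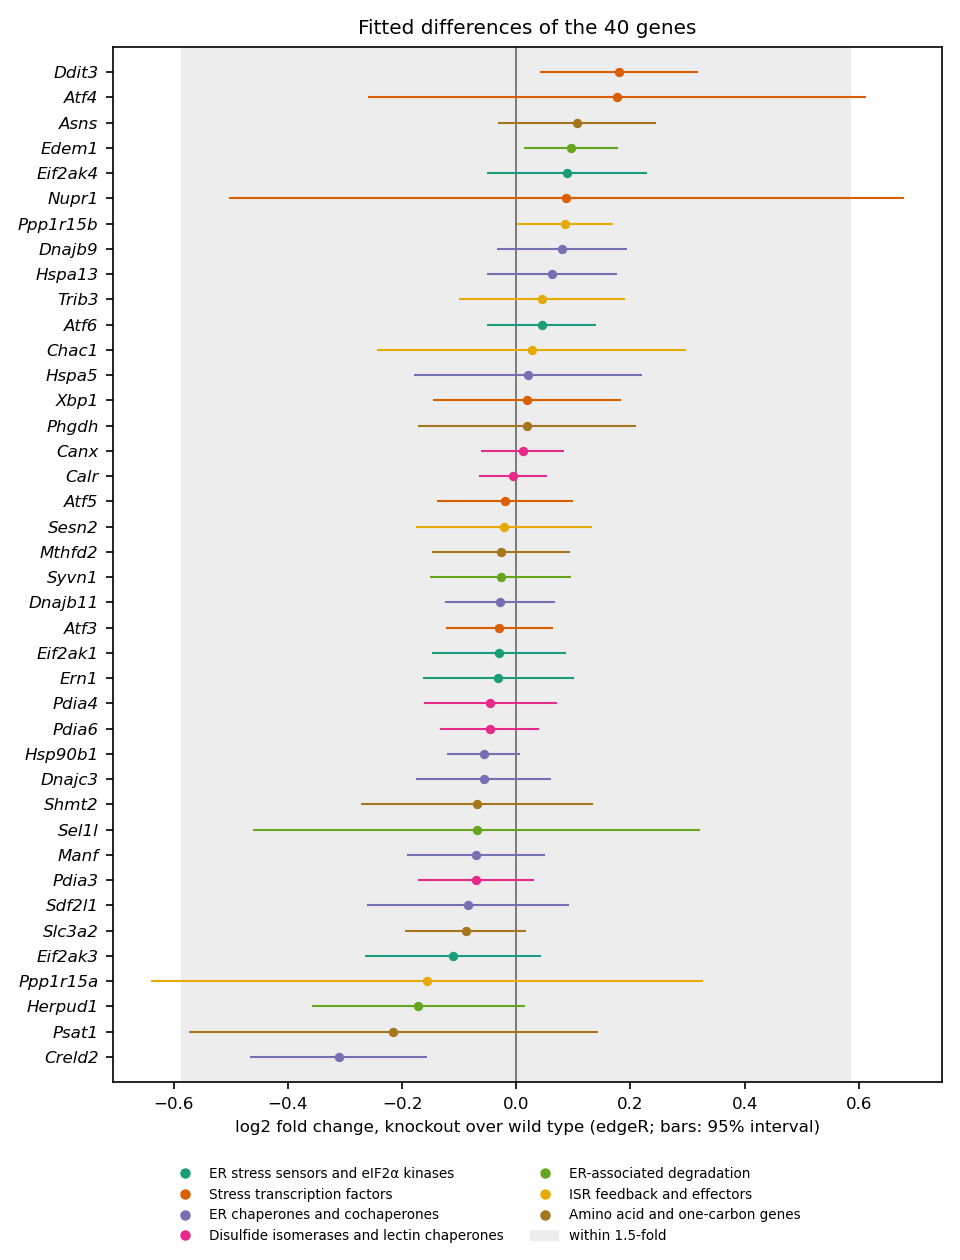
Fitted log2 fold change of each of the 40 genes, knockout over wild type, on the x axis, with its 95% interval from edgeR as a bar and the role of the gene as colour. The grey band spans 1.5-fold in either direction; the bars of 37 genes stay inside it, and those of Atf4, Nupr1 and Ppp1r15a reach out of it.

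**Figure D2:**
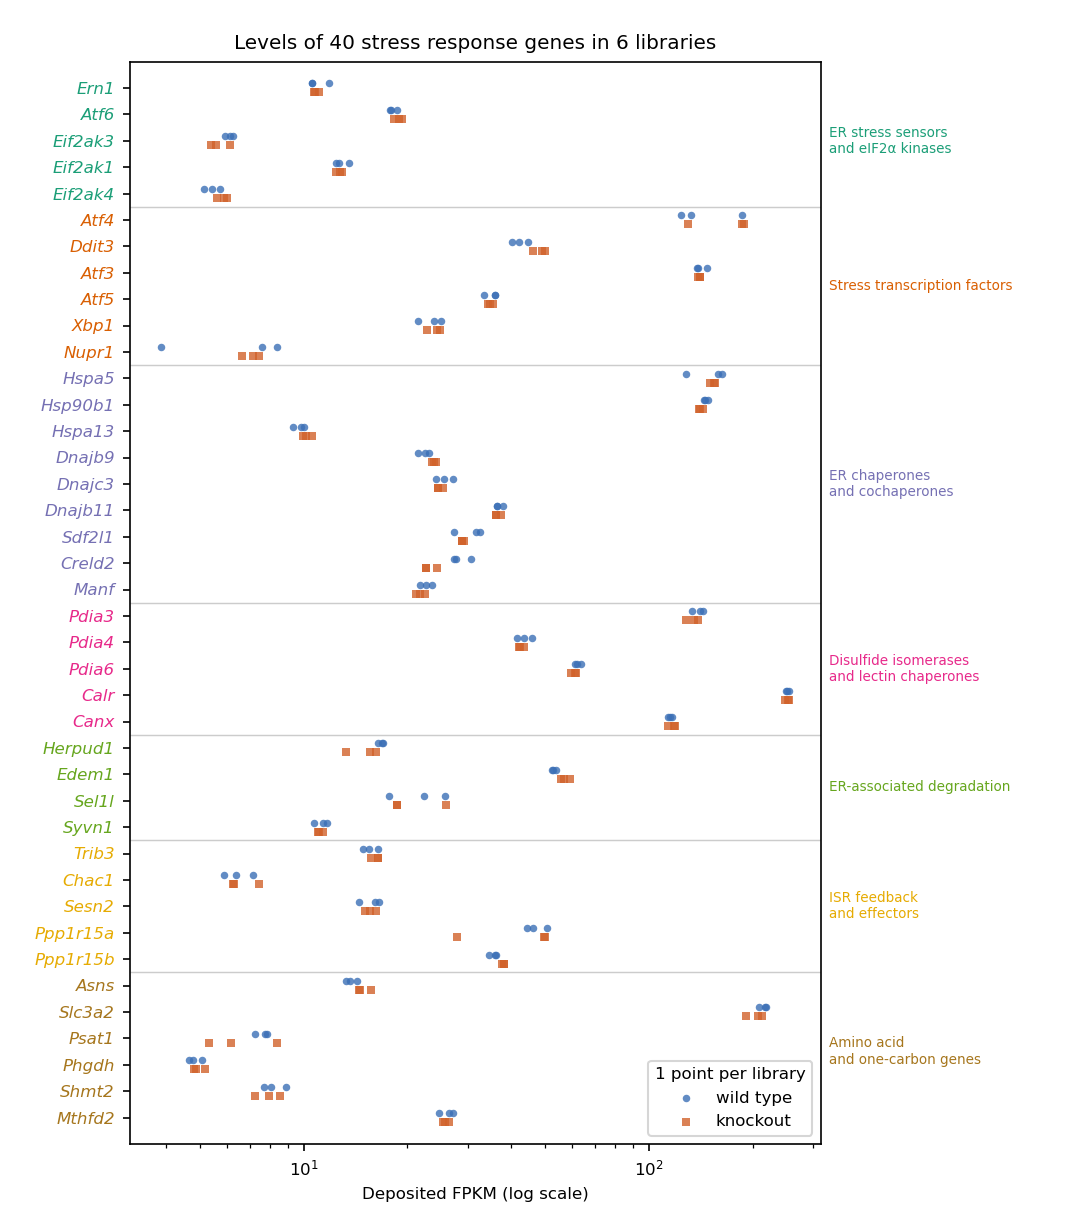
Deposited FPKM (x axis, log scale) of the 40 genes in the 6 libraries, 1 point per library, grouped by role. Points of both genotypes lie together in most rows, from Phgdh near 5 FPKM to Calr above 240 FPKM, while Nupr1, Atf4, Sel1l, Ppp1r15a and Psat1 are spread within a genotype.

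The sensors and the eIF2α kinases were expressed at low to moderate levels, from 5.63 FPKM for Eif2ak4 to 18.5 FPKM for Atf6 as means of the 6 libraries, and none of the 5 reached an unadjusted p of 0.05. Eif2ak3, which encodes PERK, stood at 41.0, 42.3 and 39.9 CPM in wild type, against 40.9, 37.2 and 36.0 CPM in knockout. The groups overlapped through knockout replicate 1, the log2 fold change was -0.11 (SE 0.0659), and the adjusted p was 0.629 (edgeR, Benjamini-Hochberg). Ern1, which encodes IRE1α, was at 100.6 ± 6.66 CPM in wild type, against 98.5 ± 1.61 in knockout (SD, n = 3). Atf6 was at 187 ± 4.28 and 192.9 ± 5.16 CPM. The other eIF2α kinases differed as little, with Eif2ak1 (HRI) at a log2 fold change of -0.03 and Eif2ak4 (GCN2) at 0.09. Summed over the 5 genes, FPKM lay between 52.4 and 54.3 in the 6 libraries, so the transcript supply of the sensors as a group was nearly the same in each. These are transcript levels, and the activation of the sensors by phosphorylation or cleavage was not measured.

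The stress transcription factors held the member with the smallest p of the higher genes. Ddit3, whose product CHOP is the factor most tied to stress-induced death, stood at 80.4, 86.1 and 76.6 CPM in wild type, against 92.9, 94.9 and 87.9 CPM in knockout. Every knockout library lay above every wild-type library, by a ratio of 1.13 (95% interval 1.03 to 1.25) between the groups. The log2 fold change was 0.18 (SE 0.059), with an unadjusted p of 0.017 and an adjusted p of 0.348 by edgeR, so the difference did not pass, and over the alternatives the adjusted p ran from 0.178 to 0.620. Ddit3 (chr10:127290774-127296288, plus strand) overlaps the exons of Mars1 on the opposite strand by 68 bases, and whether the counting used strand is not stated. Mars1, the methionyl-tRNA synthetase, stood at 64.6, 65.9 and 67.7 CPM in wild type, against 57.9, 57.9 and 60.1 in knockout, the opposite direction to Ddit3. A second row listed under the symbol Ddit3 held 1 count in each library and was not tested.

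Atf4 had the highest mean level of these factors over the 6 libraries, although Atf3 had the higher FPKM in wild-type replicates 1 and 2 and knockout replicate 3. The 6 libraries lay at 2 levels of Atf4 that each held both genotypes. The values were 326, 352 and 489 CPM in wild type, against 486, 494 and 340 CPM in knockout. Wild-type replicate 3 therefore lay with knockout replicates 1 and 2, and knockout replicate 3 with wild-type replicates 1 and 2. These levels rest on 22174 to 38487 counts per library, and no exon overlap or shared 50-base sequence of at least 1% was found for Atf4. The log2 fold change was 0.18 (SE 0.187) with an adjusted p of 0.804 (edgeR), and the interval from -0.26 to 0.61 leaves room for a change of 1.5-fold. Without wild-type replicate 3 it was 0.38, without knockout replicate 3 it was 0.33 and without wild-type replicate 1 it was 0.06. ATF4 is controlled largely through translation of its mRNA, which these libraries do not measure.

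Of the other factors, Atf3, Atf5 and Xbp1 varied less within genotypes than Atf4, and Nupr1 varied more. Atf3, an early stress factor that is also induced by inflammatory signals, had 331, 358 and 334 CPM in wild type, against 335, 336 and 331 CPM in knockout. Its log2 fold change was -0.03 (SE 0.0402), with an adjusted p of 0.864 by edgeR. Xbp1 was at 85.2 ± 7.04 CPM in wild type, against 86.4 ± 3.90 in knockout (SD, n = 3), and a count per gene cannot tell its spliced from its unspliced form. Atf5, a relative of Atf4, was at 78.0 ± 3.67 and 76.9 ± 1.36 CPM; it shares 82 exonic bases with Nup62 on the opposite strand, which had 152.5, 161 and 50.1 CPM in wild type, against 48.5, 35.1 and 50.6 in knockout. Nupr1, a small stress-induced chromatin protein, was at 23.5, 10.9 and 21.2 CPM in wild type, against 20.7, 18.5 and 19.9 in knockout. Only wild-type replicate 2 stood apart, and the log2 fold change of 0.09 became -0.18 without it.

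The ER chaperones held both the largest difference among the 40 genes and some of the steadiest values. Creld2 (chr15:88819646-88826683, plus strand), an ER protein with disulfide isomerase activity that ATF6 induces, stood at 46.5, 42.5 and 41.6 CPM in wild type, against 34.2, 34.2 and 36.8 CPM in knockout. All 3 knockout libraries lay below all 3 wild-type libraries, and the ratio was 0.806 (95% interval 0.724 to 0.897). The log2 fold change was -0.31 (SE 0.0661), with an unadjusted p of 0.0019 and an adjusted p of 0.145 by edgeR, so it did not pass. DESeq2 gave nearly the same fold change with an adjusted p of 0.0107, and the alternatives as a whole ran from 0.0107 to 0.377. Under edgeR with robust dispersion the adjusted p was 0.0973, and without any 1 library the log2 fold change stayed between -0.35 and -0.26.

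Hspa5, which encodes BiP, the chaperone that holds the sensors inactive, was the most abundant of this group at 150 ± 18.9 FPKM in wild type and 154 ± 3.03 FPKM in knockout (SD, n = 3). Its CPM was 750, 774 and 606 in wild type, against 704, 732 and 725 in knockout. Wild-type replicate 3 was the lowest, and the 5 other libraries lay together. The log2 fold change was 0.02 (SE 0.0852) with an adjusted p of 0.961 by edgeR, and it was -0.08 without that library. Hsp90b1 (GRP94), the HSP90 of the ER and a neighbour of Hspa5 in level at 144 FPKM, had 667, 653 and 656 CPM in wild type, against 642, 631 and 626 in knockout. Each knockout library was lower, but by little, with a log2 fold change of -0.06 (SE 0.0272) and an adjusted p of 0.534 by edgeR.

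Dnajb9 (ERdj4), a cochaperone that keeps IRE1α quiet through BiP, lay the other way with 65.8, 61.3 and 63.9 CPM in wild type, against 66.3, 67.4 and 68.2 in knockout. The groups were separated by under 1 CPM, the log2 fold change was 0.08 (SE 0.0486), and the adjusted p was 0.632 by edgeR. Dnajb11 (ERdj3) and Dnajc3 (p58IPK, an inhibitor of PERK) had log2 fold changes of -0.03 and -0.06. Hspa13 (STCH) had 0.06, Manf, a secreted ER protein that binds BiP, -0.07, and Sdf2l1, a partner of the ERdj proteins, -0.08. Of the 9 chaperone genes 6 had a fold change below 0 and 3 above 0. Without Creld2, the fold changes of the group lay within 0.1 of 0.

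The disulfide isomerases and lectin chaperones, which fold glycoproteins, had the highest summed level of the 7 role groups. Calr (calreticulin) had the highest level of the 40 genes at 252 ± 2.44 FPKM in wild type and 253 ± 3.58 FPKM in knockout (SD, n = 3). In CPM it stood at 816, 814 and 801 in wild type, against 815, 795 and 811 in knockout, so that the highest library exceeded the lowest by a ratio of 1.03. The log2 fold change was -0.0057 (SE 0.0255), with an adjusted p of 0.964 by edgeR. Its membrane-bound relative Canx (calnexin) had 611, 598 and 602 CPM in wild type, against 621, 591 and 614 in knockout, a log2 fold change of 0.01 (SE 0.031) and an adjusted p of 0.938 by edgeR.

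Pdia3 (ERp57), the oxidoreductase that works with both lectins, had 494, 506 and 469 CPM in wild type, against 482, 470 and 447 in knockout, with overlapping groups. Its log2 fold change was -0.07 (SE 0.0437), and the adjusted p was 0.640 by edgeR. Pdia6, which acts on IRE1α as well as on clients, had 266, 260 and 255 CPM in wild type, against 247, 257 and 253 in knockout. Only knockout replicate 2 reached above a wild-type value, and the log2 fold change was -0.05 (SE 0.037) with an adjusted p of 0.733 by edgeR. Pdia4 (ERp72) likewise had a log2 fold change of -0.05. Summed over the 5 genes, FPKM was between 605 and 618 in wild type and between 601 and 616 in knockout.

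Among the genes of ER-associated degradation, which returns misfolded proteins to the cytosol, 1 lay lower and 1 higher in every knockout library. Edem1 (chr6:108828641-108859356, plus strand), a lectin that hands misfolded glycoproteins to degradation and a target of XBP1, had 387, 381 and 380 CPM in wild type, against 422, 406 and 398 in knockout. The groups did not overlap, the ratio was 1.07 (95% interval 1.01 to 1.13), and the log2 fold change of 0.10 (SE 0.0348) had an unadjusted p of 0.027 and an adjusted p of 0.394 by edgeR. Herpud1, a membrane organiser of the degradation complex, had 42.8, 44.2 and 44.2 CPM in wild type, against 41.8, 40.2 and 34.4 in knockout. Knockout replicate 3 was the lowest, and the log2 fold change of -0.17 (SE 0.0798) had an adjusted p of 0.520 by edgeR. Without that library the log2 fold change was -0.093. Edem1 and Herpud1, both targets of the unfolded protein response, thus had fold changes of opposite sign.

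The ubiquitin ligase Syvn1 (HRD1) had 61.2 ± 2.72 CPM in wild type, against 60.1 ± 1.09 in knockout (SD, n = 3). Its adaptor Sel1l had 169, 214 and 245 CPM in wild type, against 177, 177 and 245 in knockout. The third replicates of both genotypes had the same level, and the lowest 3 libraries were of both genotypes. The log2 fold change of -0.07 (SE 0.167; adjusted p 0.927, edgeR) was 0.06 without wild-type replicate 3 and -0.24 without knockout replicate 3.

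**Figure D3:**
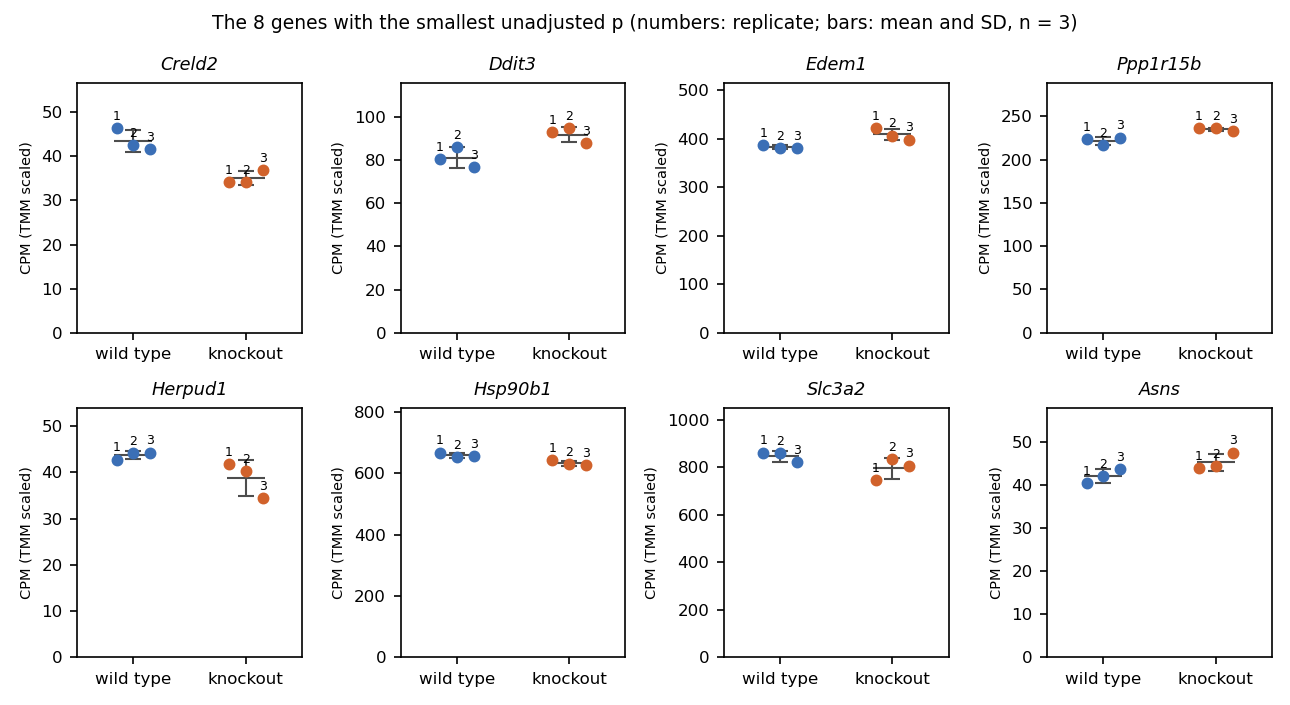
CPM on TMM-scaled library sizes (y axis, from 0) of the 8 members with the smallest unadjusted p by edgeR, with replicate numbers at the points and the mean and SD of 3 libraries as bars. Relative to its level Creld2 shows the widest gap between the genotypes, from 41.6 down to 36.8 CPM, and in Slc3a2 the groups overlap.

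The 2 regulatory subunits that bring phosphatase to eIF2α, and so end the response, had different patterns. Ppp1r15b (CReP), the constitutive subunit (chr1:133131143-133139783, plus strand), had 223, 217 and 225 CPM in wild type, against 236, 236 and 233 in knockout. All knockout libraries were higher, with a ratio of 1.06, a log2 fold change of 0.09 (SE 0.036), an unadjusted p of 0.048 and an adjusted p of 0.472 by edgeR. Its exons share 640 bases with Gm26616 on the opposite strand, which had a mean of 0.580 CPM. Ppp1r15a (GADD34), the stress-induced subunit, had 166, 152 and 145 CPM in wild type, against 163, 163 and 90.7 in knockout. Knockout replicate 3 alone stood apart, on 6636 counts, and the log2 fold change of -0.16 (SE 0.207; adjusted p 0.859, edgeR) became 0.07 without it.

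The effectors Trib3, Chac1 and Sesn2 varied less between libraries than Atf4 did, unlike Ppp1r15a. Trib3, a pseudokinase that acts back on ATF4, had 37.0 ± 2.04 CPM in wild type, against 38.2 ± 0.993 in knockout (SD, n = 3). Chac1, which degrades glutathione, had 11.8 ± 1.18 and 12.1 ± 1.21 CPM, and Sesn2, a stress-induced brake on mTORC1, 61.1 ± 4.32 and 60.1 ± 2.18 CPM. The ratio of the highest to the lowest of the 6 libraries was 1.11 for Trib3, 1.15 for Sesn2 and 1.25 for Chac1, against 1.51 for Atf4 and 1.83 for Ppp1r15a.

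Of the 6 amino acid and one-carbon genes, most of which ATF4 induces, 2 had a fold change above 0 and 4 below 0. Slc3a2, the heavy chain shared by several amino acid transporters, was the second most abundant member at 215 ± 5.60 FPKM in wild type and 204 ± 11.3 in knockout (SD, n = 3). It stood at 862, 860 and 821 CPM in wild type, against 748, 835 and 808 in knockout. Knockout replicate 1 was the lowest, the groups overlapped, and the log2 fold change was -0.09 (SE 0.0449) with an adjusted p of 0.554 by edgeR. Asns (asparagine synthetase), a textbook target of ATF4, had 40.4, 42.0 and 43.6 CPM in wild type, against 43.9, 44.3 and 47.4 in knockout. The groups were separate by a narrow margin, with a log2 fold change of 0.11 (SE 0.0591) and an adjusted p of 0.596 by edgeR.

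Serine synthesis starts with Phgdh and continues with Psat1. Psat1 had 37.3, 37.1 and 34.4 CPM in wild type, against 29.0, 25.2 and 39.4 in knockout. Knockout replicates 1 and 2 were the lowest of the 6 libraries and knockout replicate 3 was the highest. Its log2 fold change of -0.22 (SE 0.153; adjusted p 0.692, edgeR) was -0.42 without knockout replicate 3, where the adjusted p was 0.321. Phgdh, the least abundant member, had 13.5 ± 0.593 CPM in wild type, against 13.7 ± 0.554 in knockout (SD, n = 3). Its value is uncertain, since 38.3% of its 50-base sequences also occur in the pseudogene Gm7901, which had a mean of 2.82 CPM. The mitochondrial enzymes Shmt2 and Mthfd2, which carry serine into one-carbon metabolism, had log2 fold changes of -0.07 and -0.03.

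The spread within genotypes differed widely between the members. Taking the SD of log2 CPM within groups, the median of the 40 genes was 0.0595, against 0.0863 over the 8226 genes of at least 10 CPM, and 29 members lay below that median. The 8226 genes were not matched to the members for level, and the part of level in the lower spread was not tested. Calr, Hsp90b1, Ppp1r15b, Pdia6, Canx, Dnajb11, Edem1 and Atf6 were below the 10th percentile of those genes, and 5 of these 8 are folding genes. Nupr1, Ppp1r15a, Atf4, Sel1l and Psat1 were above the 90th percentile. Their outlying libraries differed: wild-type replicate 2 for Nupr1, knockout replicate 3 for Ppp1r15a, while in Atf4, Sel1l and Psat1 more than 1 library lay away from the rest. No library was therefore the odd one in all 5, but knockout replicate 3 lay apart from the other knockout libraries in all but Nupr1. It was below them in Atf4 and Ppp1r15a and above them in Sel1l and Psat1. Of these 5 genes, Ppp1r15a overlapped another gene, by 12 exonic bases with Tulp2, which had a mean of 0.516 CPM, and the others shared neither exons nor at least 1% of 50-base sequences with a listed gene.

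**Figure D4:**
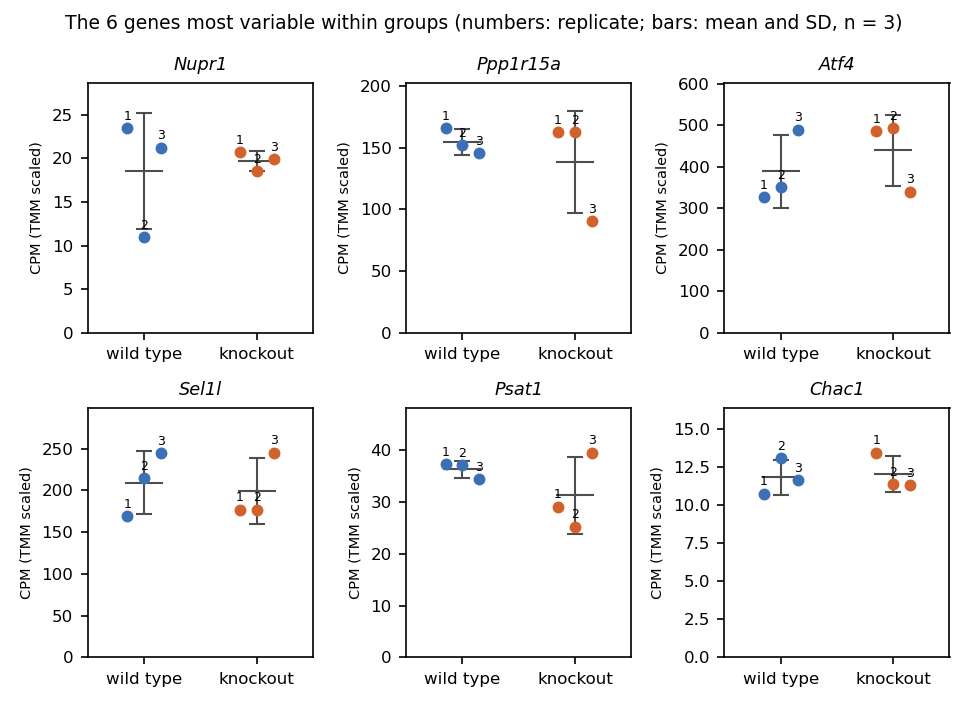
CPM on TMM-scaled library sizes (y axis, from 0) of the 6 members with the largest spread within groups, with replicate numbers at the points and the mean and SD of 3 libraries as bars. In Atf4 wild-type replicate 3 sits with the higher knockout libraries, in Ppp1r15a knockout replicate 3 sits alone at 90.7 CPM, and in Nupr1 wild-type replicate 2 sits alone at 10.9 CPM.

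Genes of the same pathways outside the 40 were described through 8 lists of 118 genes, of which 116 were tested and 0 passed by edgeR. At an unadjusted p under 0.05 there were 11 (9.48%, beside 10.4% of all genes tested), 8 lower and 3 higher in knockout. The genotypes did not overlap in 29 of the 116, beside 17.6% of all genes tested. Their median log2 fold change was -0.0096.

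Other ER folding genes resembled the members, with 0 of 18 at an unadjusted p under 0.05 and a median of -0.02. P4hb, the founding protein disulfide isomerase, was the most abundant at 229 ± 4.20 FPKM in wild type and 237 ± 4.47 in knockout (SD, n = 3), followed by the prolyl isomerase Ppib at 48.0 ± 1.53 and 48.4 ± 1.79. In the list of degradation genes 1 of 17 tested had an unadjusted p under 0.05, Nploc4, a cofactor of the segregase Vcp, with a log2 fold change of -0.10 and an adjusted p of 0.477 by edgeR. Vcp itself was at 116 ± 2.56 and 112 ± 5.56 FPKM, and the lectin Os9 at 82.8 ± 3.0 and 85.7 ± 1.30. Of 15 other transducers and initiation factors, 12 had a fold change above 0. Mbtps2, the protease that makes the last cut in ATF6, was at 50.8 ± 2.73 CPM in wild type, against 60.1 ± 5.15 in knockout, with a log2 fold change of 0.24 (SE 0.0765) and an adjusted p of 0.323 by edgeR. Nck1, an adaptor, had -0.19 and 0.364. The ATF6 relative Atf6b was at 31.7 ± 2.70 and 29.1 ± 1.69 FPKM and the eIF2β gene Eif2s2 at 20.0 ± 0.736 and 20.4 ± 0.243.

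The other targets of ATF4 lay at a median log2 fold change of -0.08, and 8 of 20 were above 0. Slc7a11, the cystine transporter that pairs with Slc3a2, stood at 1432, 1312 and 1485 CPM in wild type, against 1299, 1276 and 1285 in knockout, so that no library overlapped. Its log2 fold change was -0.13 (SE 0.044) with an adjusted p of 0.356 by edgeR. Slc1a5, a glutamine transporter, had -0.21 (SE 0.0603) and an adjusted p of 0.271, and Sesn3, a relative of Sesn2, -0.49 (SE 0.179) and 0.403, by the same test. Cdsn had a fold change of 1.32 on the log2 scale but was at 0.323 ± 0.0763 CPM in wild type, against 0.810 ± 0.0918 in knockout (adjusted p 0.270, edgeR). Among 13 genes of tRNA charging 2 had an unadjusted p under 0.05, of which Mars1 had a log2 fold change of -0.17 (adjusted p 0.251, edgeR) and Eprs 0.09 (adjusted p 0.366).

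Transcripts known as substrates of IRE1 RNA decay lay at a median log2 fold change of -0.12, and 6 of 8 were below 0. Tapbp (tapasin), which loads peptides onto class I molecules and is the most abundant of the 8, stood at 680, 617 and 761 CPM in wild type, against 517, 541 and 498 in knockout. The libraries did not overlap, and the log2 fold change of -0.40 (SE 0.0741) had an unadjusted p of 0.00081 and an adjusted p of 0.110 by edgeR. On the same scale Col6a1 had -0.31, Sparc -0.12 and Pdgfrb -0.31, while Scara3 had 0.45 and Pmp22 0.06. Pdgfrb and Scara3 were scarce, at 0.422 and 0.181 CPM in wild type. Fibroblast and mesothelial markers, summed further below, had a median of -0.28. Decay by IRE1 was not measured, and the part of cell types in this list was not tested. Among cytosolic heat shock genes 1 of 15 had an unadjusted p under 0.05, and among mitochondrial chaperones and proteases 0 of 10. The cytosolic gene, Hsp90ab1, had a log2 fold change of -0.07 (adjusted p 0.362, edgeR), and the mitochondrial chaperones Hspa9 and Hspd1 had 0.07 and -0.02.

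**Figure D5:**
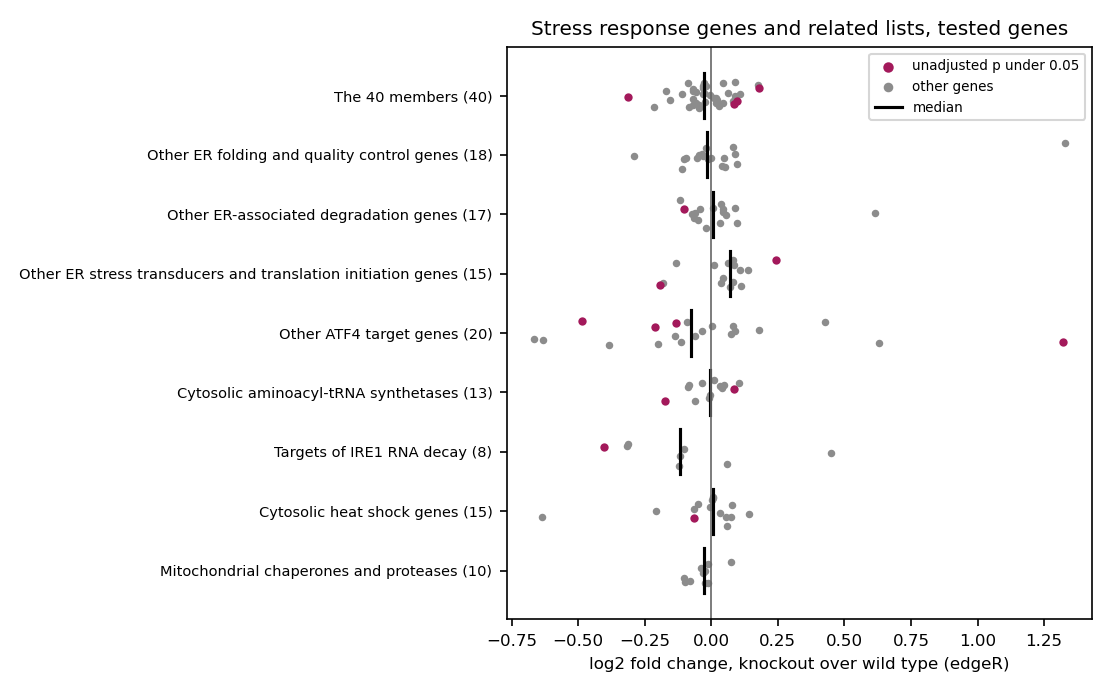
Log2 fold change, knockout over wild type (x axis, edgeR), of every tested gene of the 40 members and of 8 related lists, 1 point per gene, with the median of each list as a black bar and genes at an unadjusted p under 0.05 in purple. The medians run from -0.12 for substrates of IRE1 RNA decay to 0.07 for other ER stress transducers, and the members' median of -0.03 lies between them. Decay itself was not measured.

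Markers of cell types and of RNA content were summed for each library, and their part in the members' values was not tested. Of their genes, 1 passed by edgeR. The 10 macrophage markers summed to 20445 to 21681 CPM in wild type, against 12659 to 12807 in knockout, with Lyz2 the gene that passed. Lyz2 was at 16349 ± 652 CPM in wild type, against 7970 ± 42.0 in knockout (SD, n = 3). It carried most of the sum and most of the difference between the genotypes in that sum. The sums therefore describe Lyz2 more than the other markers, and the median log2 fold change of the 10 markers was -0.07. The 10 fibroblast and mesothelial markers summed to 95.1 to 99.8 CPM against 71.8 to 85.4. The 10 B and plasma cell markers in the table summed to 263 to 305 CPM against 223 to 266, ranges that overlap. Most of that sum was Sdc1, at 254 ± 19.3 and 208.9 ± 23.7 CPM (SD, n = 3), which did not pass, and 5 of the 8 markers tested had a fold change above 0. The 9 T and NK cell markers summed to 15.9 to 20.3 against 12.5 to 14.0 CPM, the 6 mast cell markers to 4.98 to 6.10 against 3.02 to 4.25, and the 6 dendritic cell markers to 14.3 to 16.9 against 11.6 to 14.2. The 7 neutrophil markers summed to 23.6 to 26.3 against 20.7 to 23.0 CPM, with Ly6g and Retnlg at 0 in all 6 libraries. The 13 mitochondrially encoded genes summed to 19567 to 20862 CPM in wild type, against 21456 to 22953 in knockout. All 13 had a fold change above 0, with a median of 0.28 on the log2 scale, and 0 passed by edgeR. At an unadjusted p under 0.05 (edgeR) there were 8, beside 10.4% of all genes tested. In 9 the genotypes did not overlap, beside 17.6% of all genes tested.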

How the data were processed

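Poly(A) RNA of mouse peritoneal macrophages was sequenced as paired ends, per the labels' protocols. The submitters' processing notes name HISAT2 2.0, while the counter, annotation, genome build and strand setting are not stated in those notes or in the labels. For each library the authors deposited a whole-number count per gene and an FPKM, which per the file headers is scaled for length and library size. A further 12 columns of per-sample values were not used. Coordinates are given as deposited; 37 of 40 members had the same ones in GENCODE M21 (GRCm38).

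Of 27240 genes, 16239 passed filterByExpr. Counts were scaled by TMM and tested two-sided with quasi-likelihood fits in edgeR 4.0.16 (R 4.3.3), with genotype alone in the model. The p-values of all genes tested were adjusted by the Benjamini-Hochberg method, and 0.05 was the threshold. SDs are over 3 libraries. FPKM was used for levels between genes. No library was taken as a repeat of another, since the chi-square between libraries of 1 genotype was 36.7 to 42.8 per degree of freedom. Alternatives were no filter, RLE size factors, DESeq2 1.42.0, robust dispersion, limma 3.58.1 on log2(FPKM + 1) and log2(FPKM + 0.1) for genes reaching FPKM 1 in 3 or more libraries, or without that filter, the replicate number as a block, and each library left out.

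The members and lists were chosen with earlier results of these data known. All 40 members could be named; the 10 with the smallest p and the 10 with the highest FPKM were given in full. Of each other list, its 2 most abundant genes and those with an unadjusted p under 0.05 could be named, and not all are. Overlaps and shared 50-base sequences were taken from GENCODE M21 and promoters from RefSeq (GRCm38.p6).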

Additional observations from a re-analysis of the deposited data

How the results depend on the processing

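The count of members called was 0 under each alternative except DESeq2, where it was 1 (Creld2, log2 fold change -0.31). Over all genes, 11 were called, against 413 with DESeq2, 79 with robust dispersion, 7 without the filter and 3 with limma on unfiltered log2(FPKM + 1). Leaving out each library in turn gave 7 to 35, with 35 without knockout replicate 1 and 24 without wild-type replicate 2; the cause was not tested. The members' median log2 fold change ran from -0.043 (without wild-type replicate 1) to -0.0087 (without wild-type replicate 3) when each library was left out.

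Of 560 member values over 14 alternatives, 535 kept their direction and their side of the threshold, 24 of 15 members changed sign and 1 became significant. Calr changed sign in the limma fits (0.0063 with both pseudocounts and without the filter). With each library left out in turn, log2 fold changes ran over 0 for 15 members: Ern1 from -0.063 to 0.025, Eif2ak1 from -0.058 to 0.0054, Atf3 from -0.050 to 0.0062, Atf5 from -0.059 to 0.0041, Xbp1 from -0.045 to 0.072, Nupr1 from -0.18 to 0.29, Hspa5 from -0.081 to 0.087, Calr from -0.014 to 0.0014, Canx from -0.0041 to 0.029, Sel1l from -0.24 to 0.058, Chac1 from -0.059 to 0.11, Sesn2 from -0.079 to 0.019, Ppp1r15a from -0.29 to 0.074, Phgdh from -0.015 to 0.052 and Mthfd2 from -0.067 to 0.0087. None of these 15 passed in any setting.

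Same-numbered libraries of the 2 genotypes deviated together only weakly (correlations 0.0488, 0.0265 and 0.0173 over genes), so the numbers were not taken as pairs, although each library correlated best with its own number, a hint from the data and not from the design. With the number as a replicate block 3 genes were called, 0 of them members, and the members' median was -0.03. With 3 libraries per genotype the intervals of Atf4, Nupr1 and Ppp1r15a do not exclude a 1.5-fold change.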
